A study of Mus musculus with 6 samples.

Results

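The adhesion G protein-coupled receptors Adgrb1, Adgrb2, Adgrb3, Adgrl1, Adgrl2 and Adgrl3 were followed through the linear and circular RNA of the mouse prefrontal cortex. They were chosen by gene symbol, by a rule that uses no measured value, though earlier results of these data were known. The linear table held 153 isoforms of these 6 genes that share exons with the annotated gene, of 155855 such isoforms with a symbol (175010 isoforms in all), and the circular table held 76 of its 17369 circular RNAs (circRNAs). The PS_high group was 3 samples of male C57BL/6 mice given nano-polystyrene (PS NPs) at 50 mg/kg body weight once a day by oral gavage for 6 months. The control group was 3 samples of male C57BL/6 mice gavaged with water over the same 6 months (0 mg/kg). Dosing of all mice began at 5 weeks of age, and tissue was taken at 30 weeks. Nothing in the labels says whether a sample was 1 animal or a pool, so p-values measure the spread between these samples.

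Adhesion receptors carry a long extracellular part that is cut at an autoproteolysis site next to the membrane, and the freed tip stays bound and can contact proteins of a neighbouring cell. The Adgrb receptors act in phagocytosis, dendrite and synapse formation, and Adgrb3 binds the secreted C1q-like proteins. The Adgrl receptors, the latrophilins, are synaptic proteins that bind teneurins and FLRT proteins, and Adgrl1 was found as a receptor of a spider toxin that sets off transmitter release.

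Estimated counts of linear RNA summed to between 53344395 and 63466209 in PS_high libraries and between 61842978 and 66004386 in control libraries, and back-splice reads, which cross the junction that closes a circle, to between 15658 and 19880 and between 17554 and 19957. The library PS_high 1 stood apart on the first principal component of the genes (score 56.97, against -28.26 to 14.37 for the other 5). All 10 listed markers of cortical excitatory neurons were detected, and Slc17a7, the vesicular glutamate transporter of these cells, had 397.9, 749.5 and 763.5 CPM (counts scaled to library depth by edgeR) in PS_high and 693.6, 601.1 and 820.3 CPM in control. Summed choroid plexus markers had 235.6, 1371 and 864.5 CPM in PS_high and 227.7, 772.6 and 514.5 CPM in control. In both groups replicate 1 was the lowest and replicate 2 the highest. Of the tested choroid plexus markers 7 of 7 were above 0 in log2 difference, and the 8 tested fibroblast markers were also all above 0. Summed blood markers ranged from 155.7 to 290.3 CPM in PS_high and from 214.1 to 403.4 CPM in control, with 5 of 5 tested markers below 0. The part of these cell types in the results below was not tested. In bulk tissue, fewer cells of a type and less RNA per cell cannot be told apart.

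The first comparison asked whether the level of the receptors differed after the exposure. All 6 genes were well detected in every library. Of these, 0 of 6 passed an adjusted p of 0.05 in the quasi-likelihood test of edgeR, and 0 of 6 had an unadjusted p under 0.05. Over all 20272 genes tested, 0.0247% passed the adjusted threshold and 2.73% the unadjusted one. The adjusted p was 1.0 for each of the 6, and their PS_high and control values overlapped in every gene, on the CPM and on the FPKM scale, which also divides by isoform length.

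Adgrb1, which recognises phosphatidylserine on dying cells, had 108.3, 169.5 and 137.2 CPM in PS_high and 138.4, 159.0 and 149.8 CPM in control. The lowest value was that of PS_high 1 and the highest that of PS_high 2, so that the PS_high samples enclosed the control samples. The log2 difference of PS_high over control was -0.11 (SE 0.18, 95% interval -0.54 to 0.32). With annotated isoforms only, which hold few of its counts, it was -1.35.

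Adgrb2, its close relative in neurons, had 73.8, 152.9 and 133.7 CPM in PS_high and 126.7, 150.1 and 145.9 CPM in control. Here PS_high 1 lay below the other 5 libraries, which kept within 126.7 to 152.9 CPM. The log2 difference was -0.23 (SE 0.26, 95% interval -0.84 to 0.38).

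Adgrb3, the C1q-like receptor, had 990.3, 730.5 and 794.4 CPM in PS_high and 830.5, 768.7 and 748.4 CPM in control. PS_high 1 was the highest of the 6 libraries and PS_high 2 the lowest. The log2 difference was 0.10 (SE 0.15, 95% interval -0.26 to 0.46).

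Adgrl1 had 224.3, 572.7 and 456.1 CPM in PS_high and 448.5, 326.2 and 484.4 CPM in control. The libraries PS_high 1 and control 2 were the lowest, and the mean was nearly the same in both groups, 417.7 ± 177 CPM in PS_high and 419.7 ± 82.9 CPM in control (SD, n = 3 each). The log2 difference was -0.01 (SE 0.33), with the widest 95% interval of the 6 genes, -0.78 to 0.77.

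Adgrl2 had 112.7, 127.3 and 127.5 CPM in PS_high and 112.4, 118.7 and 128.8 CPM in control, the narrowest spread of the 6 genes. The log2 difference was 0.03 (SE 0.13, 95% interval -0.27 to 0.33). Adgrl3, whose gene is the longest of the latrophilins in the table, had 421.1, 358.7 and 384.8 CPM in PS_high and 339.0, 395.9 and 303.5 CPM in control. PS_high 1 was the highest and control 3 the lowest, with control 2 inside the PS_high range, and the log2 difference was 0.17 (SE 0.15, 95% interval -0.18 to 0.52).

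**Figure D1:**
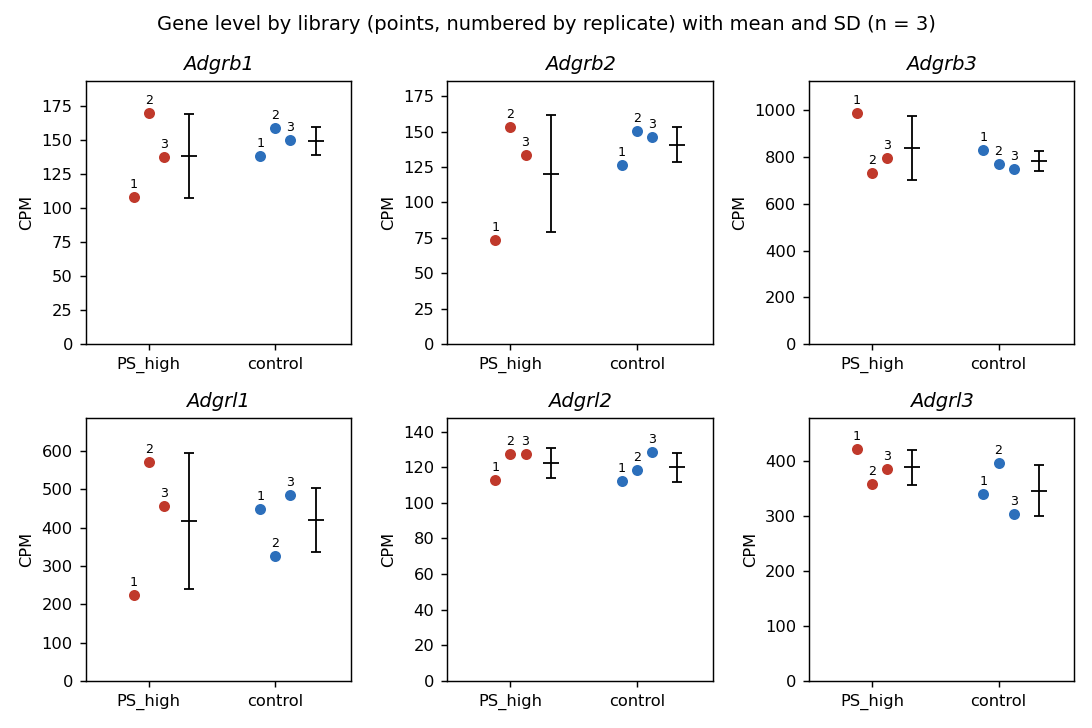
Level of each receptor gene in CPM (vertical axis, from 0) in the 3 PS_high libraries and the 3 control libraries, with points numbered by replicate and the mean and SD (n = 3) beside them. The PS_high 1 point is the lowest for Adgrb1, Adgrb2 and Adgrl1 and the highest for Adgrb3 and Adgrl3, and the groups overlap in all 6 panels.

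Per length, the order of levels was Adgrb3 at 70.0 FPKM, Adgrl3 at 60.6, Adgrl1 at 37.3, Adgrb2 at 24.5, Adgrb1 at 23.7 and Adgrl2 at 14.5 FPKM as means over the 6 libraries. Only 1.61% of tested genes had more FPKM than Adgrb3 and 15.9% more than Adgrl2. Adgrb3 exceeded Adgrl3 in 5 of 6 libraries, Adgrl3 exceeded Adgrl1 in 5, and Adgrb2 exceeded Adgrb1 in 5, so that these neighbours changed places in 1 library each. Adgrl1 exceeded Adgrb2, and Adgrb1 exceeded Adgrl2, in all 6.

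The genes whose profile over the 6 libraries was closest to each receptor were found by the root mean square difference of centred log2 CPM among 8019 genes. They were Eef1d and Atp8b2 for Adgrb1 (differences of 0.057 and 0.059), Ptbp1 and Mpnd for Adgrb2 (0.070 and 0.074), and 4932438A13Rik and Sos1 for Adgrb3 (0.022 and 0.024). For the latrophilins they were Vaultrc5 and Cacng3 for Adgrl1 (0.088 and 0.090), Coch and Dmac2 for Adgrl2 (0.023 and 0.024) and Fchsd2 and Scyl2 for Adgrl3 (0.019 and 0.045). The points share the libraries and their depth, so this is a description only.

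The second question was whether the isoforms of a receptor differed while no difference of its total was called. Of the 153 isoforms, 74 were abundant enough to test (a mean of at least 0.5 FPKM), and 0 passed the adjusted threshold in edgeR, where 0.00433% of all 69330 tested isoforms did. At an unadjusted p under 0.05 there were 11 of 74 (14.9%), 7 higher and 4 lower in PS_high, beside 3.58% of all isoforms. Of these 11, 8 belonged to Adgrl3, and isoforms of a gene divide the same reads between them and are not independent. DESeq2 called 5 of the 74, all in Adgrl3, beside 978 of the 69330 isoforms tested (1.41%). Limma on log2(FPKM + 0.1) called 1 of the 74, beside 22 of the 69330 (0.0317%). With the replicate number as a block, 6 of the 74 had an unadjusted p under 0.05 in edgeR, beside 4.3% of all.

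Adgrl3 held the isoforms that differed most. ENSMUST00000036068, an annotated coding isoform of 25 exons and 6203 bases (chromosome 5, 81310025 to 81796634, plus strand), had estimated counts of 3512, 5209 and 3890 in PS_high and 1178, 1367 and 854 in control. Every PS_high library lay above every control library. Its share of the Adgrl3 counts was 24.0 ± 8.68% in PS_high and 6.36 ± 1.07% in control (SD, n = 3 each), and the log2 difference was 2.05 (SE 0.34), with an adjusted p of 0.553 in edgeR. DESeq2 gave an adjusted p of 1.11e-07, the lowest over the alternatives tried, of which the highest was 1.0.

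ENSMUST00000122037, a coding isoform of 22 exons and 4649 bases that starts upstream of it and ends earlier (81309912 to 81795216), had 0, 0 and 4 counts in PS_high and 1645, 2820 and 4762 in control. It was close to absent from PS_high and held 17.6 ± 9.80% of the Adgrl3 counts in control. The log2 difference was -10.91 (SE 1.77), with an adjusted p of 0.549 in edgeR. Over the alternatives the adjusted p ran between 1.39e-25 in DESeq2 and 1.0 with a replicate block.

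The other isoforms from this start region went both ways. ENSMUST00000122356, of 23 exons with the same ends, had 0, 0 and 47 counts in PS_high and 1303, 2814 and 541 in control, with groups that did not overlap. ENSMUST00000118034 was at 0 in all PS_high libraries and had 201, 200 and 170 counts in control, at least 176-fold lower against a floor of 3 counts over the group. By the same floor ENSMUST00000121641 was at least 158-fold lower and ENSMUST00000117985 at least 96.0-fold lower in PS_high. ENSMUST00000117407, with the same start, had 23, 0 and 31 counts in PS_high and 0 in every control library. As 1 PS_high library was also at 0, the groups overlapped. Its group sum was at least 19.5-fold higher in PS_high by the same floor, which does not cover the spread between libraries. ENSMUST00000119788 had 27, 3 and 855 counts in PS_high and 11, 7 and 1 in control, so that 1 PS_high library stood apart and the groups overlapped. The last 5 of these were singled out after their values were seen. All 5 had a mean below 0.5 FPKM, the level set for testing, and were not tested in edgeR.

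In the other direction, MSTRG.30195.12, an assembled isoform of 25 exons, had 2540, 3572 and 635 counts in PS_high and 364, 282 and 703 in control. PS_high 3 lay below control 3, so the groups overlapped (log2 difference 2.50, SE 0.77, adjusted p 1.0 in edgeR). MSTRG.30195.3 starts at 81020752, within the first start region of the gene. It had 1447, 1030 and 2149 counts in PS_high and 498, 595 and 987 in control, without overlap (log2 difference 1.28, SE 0.40, adjusted p 1.0 in edgeR). MSTRG.30195.41, of 4 exons, had 3866, 183 and 2249 counts in PS_high and 428, 321 and 112 in control, so that PS_high 2 lay among the control libraries. ENSMUST00000124117 had 832, 1084 and 1 counts in PS_high and 0, 0 and 2 in control. MSTRG.30195.8, of 3 exons at the 5′ side of the gene, held 12.0 ± 4.65% of the counts in PS_high and 10.7 ± 5.51% in control. MSTRG.30195.22, which starts at 81171838, went lower instead, with 323, 193 and 285 counts in PS_high and 1196, 1026 and 281 in control. Its control 3 count lay inside the PS_high range.

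**Figure D2:**
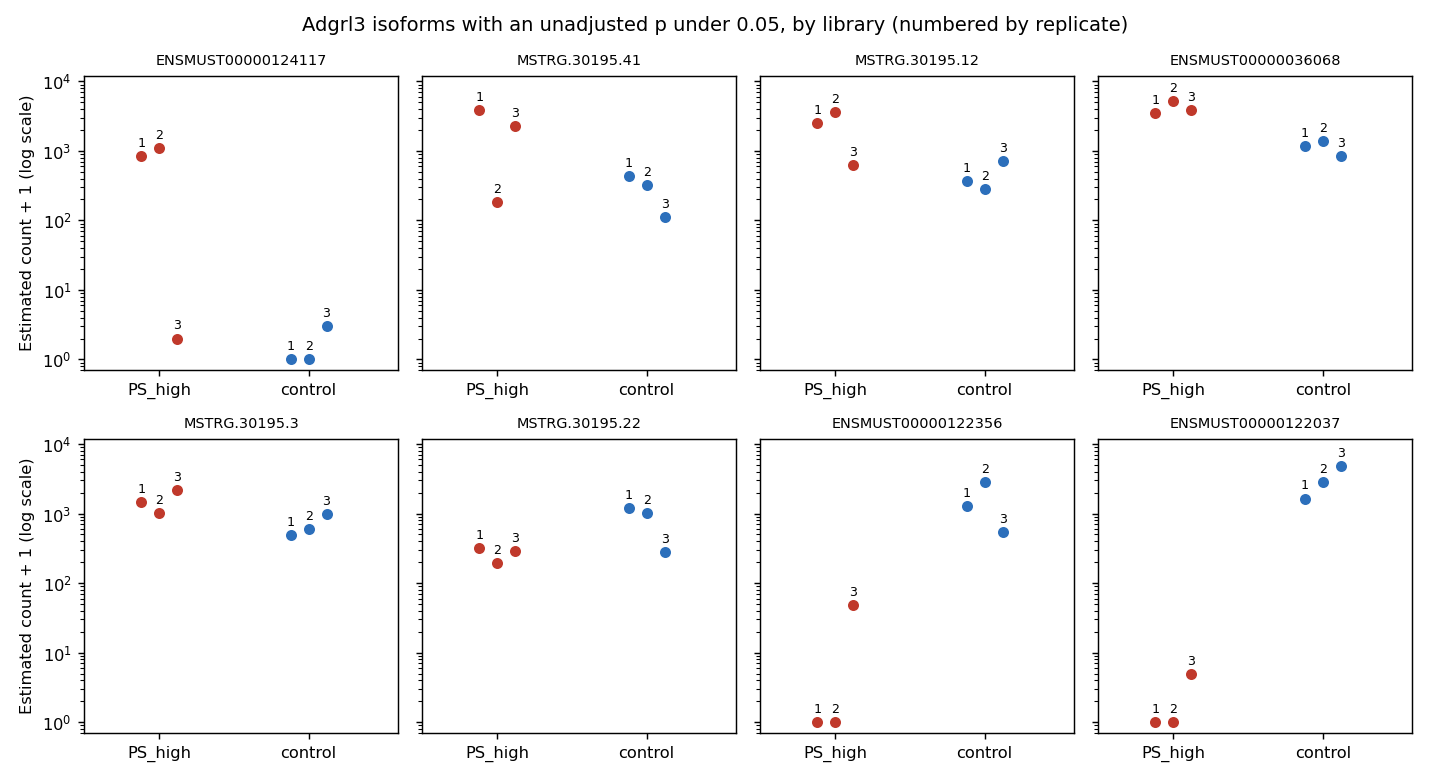
Estimated count plus 1 (vertical axis, log scale) of the 8 Adgrl3 isoforms with an unadjusted p under 0.05, which were chosen by that p, in the 3 PS_high and 3 control libraries, numbered by replicate. ENSMUST00000036068 has at least 3512 counts in every PS_high library and at most 1367 in every control library, and ENSMUST00000122037 is at 0, 0 and 4 counts in PS_high.

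Added up by the 5′ end of the isoform, the first start region of Adgrl3 (81020138 to 81021810, 20 isoforms) held 51.5, 52.7 and 53.9% of the gene's counts in PS_high and 37.2, 37.9 and 50.3% in control. The region 289.7 kb downstream (81309873 to 81310025, 18 isoforms), from which ENSMUST00000036068 and ENSMUST00000122037 both start, held 18.9, 34.7 and 28.5% in PS_high and 48.2, 51.2 and 44.0% in control. In both regions the groups did not overlap, the first being higher and the second lower in PS_high. In the first region control 3, at 50.3%, lay close to the PS_high libraries. The smaller start regions at 81171838 and 81659944 of Adgrl3 and at 83911001 of Adgrl1 did not overlap either. How often start regions of other genes fail to overlap was not computed, so there is no background to read this against. These sums were looked at after the isoforms and carry no test.

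Adgrl1 showed a difference between libraries that did not follow the groups. ENSMUST00000141158, the coding isoform of 23 exons (chromosome 8, 83900105 to 83941954, plus strand), had 1, 17886 and 17412 counts in PS_high and 16489, 132 and 20360 in control. It was nearly missing in PS_high 1 and control 2, the same libraries in which the gene as a whole was lowest. In PS_high 1 most counts were those of MSTRG.38615.13 (48.6% of the counts, against 0.250 to 2.38% in the other 5 libraries) and MSTRG.38615.8 (41.5%). In control 2 they were those of MSTRG.38615.10 (50.6%) and MSTRG.38615.8 (35.8%). MSTRG.38615.10 had 21, 910 and 76 counts in PS_high and 1126, 8286 and 1166 in control, without overlap, and its share gave an exact two-sided permutation p of 0.1, the smallest that 3 against 3 samples allow.

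Adgrb2 had 1 such library. Isoforms that start at 129992068 on chromosome 4 held 2.47, 66.0 and 71.7% of its counts in PS_high and 73.0, 69.6 and 71.3% in control. In PS_high 1, MSTRG.28148.5 and MSTRG.28148.6 from this start were at 0, while ENSMUST00000106017, a coding isoform of 30 exons from the upstream start, had 1161 counts against 3 to 32 in the other libraries, and MSTRG.28148.15 had 1004. ENSMUST00000106015 also varied within groups, with 72, 0 and 2371 counts in PS_high and 3072, 618 and 2102 in control. MSTRG.28148.13 was steadier, at 14.5 ± 3.91% in PS_high and 14.3 ± 2.34% in control, as was MSTRG.28148.17 at 11.7 ± 5.39% and 9.58 ± 1.82%.

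The counts of Adgrb1 came almost wholly from assembled isoforms, 97.3 ± 1.13% in PS_high and 93.2 ± 6.04% in control. The 5 main ones were MSTRG.13797.8 (22.3 ± 5.49% in PS_high and 25.4 ± 3.11% in control), MSTRG.13797.19 (20.6 ± 2.72% and 19.7 ± 2.96%), MSTRG.13797.7 (19.3 ± 9.25% and 19.7 ± 8.48%), MSTRG.13797.1 (18.1 ± 3.97% and 13.5 ± 6.57%) and MSTRG.13797.5 (12.9 ± 1.53% and 9.73 ± 9.02%). All 5 overlapped between the groups.

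In Adgrb3 the assembled share was 86.2 ± 0.879% in PS_high and 84.8 ± 2.57% in control. MSTRG.357.24 held 22.6 ± 1.85% in PS_high and 19.4 ± 5.58% in control, MSTRG.357.22 19.6 ± 0.915% and 21.0 ± 1.37%, and MSTRG.357.10, the 28-exon form that spans most of the gene, 12.4 ± 4.76% and 9.84 ± 0.964%. In Adgrl2 the start at 149445301 on chromosome 3 held 78.4, 64.9 and 72.7% in PS_high and 51.2, 70.2 and 67.2% in control. Its main isoforms were MSTRG.26118.6 (42.9 ± 21.2% in PS_high and 37.9 ± 15.7% in control) and MSTRG.26118.5 (23.9 ± 30.8% and 12.4 ± 15.6%), and the annotated coding ENSMUST00000106128 held 11.4 ± 6.13% and 10.4 ± 4.58%.

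Of the 27 isoforms with a mean share of at least 10% in a group, 3 had shares that did not overlap (MSTRG.38615.10, ENSMUST00000036068 and ENSMUST00000122037), beside 9.56% of the 32523 isoforms with such a share in all tested genes. Each gave an exact permutation p of 0.1, adjusted to 0.9 over the 27. Of all 153 isoforms, 34 had under 10 counts in 1 library and at least 100 in another of the same group, 7 of them among the 27. A count of 0 for a single isoform therefore also occurred between replicates of 1 group.

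**Figure D3:**
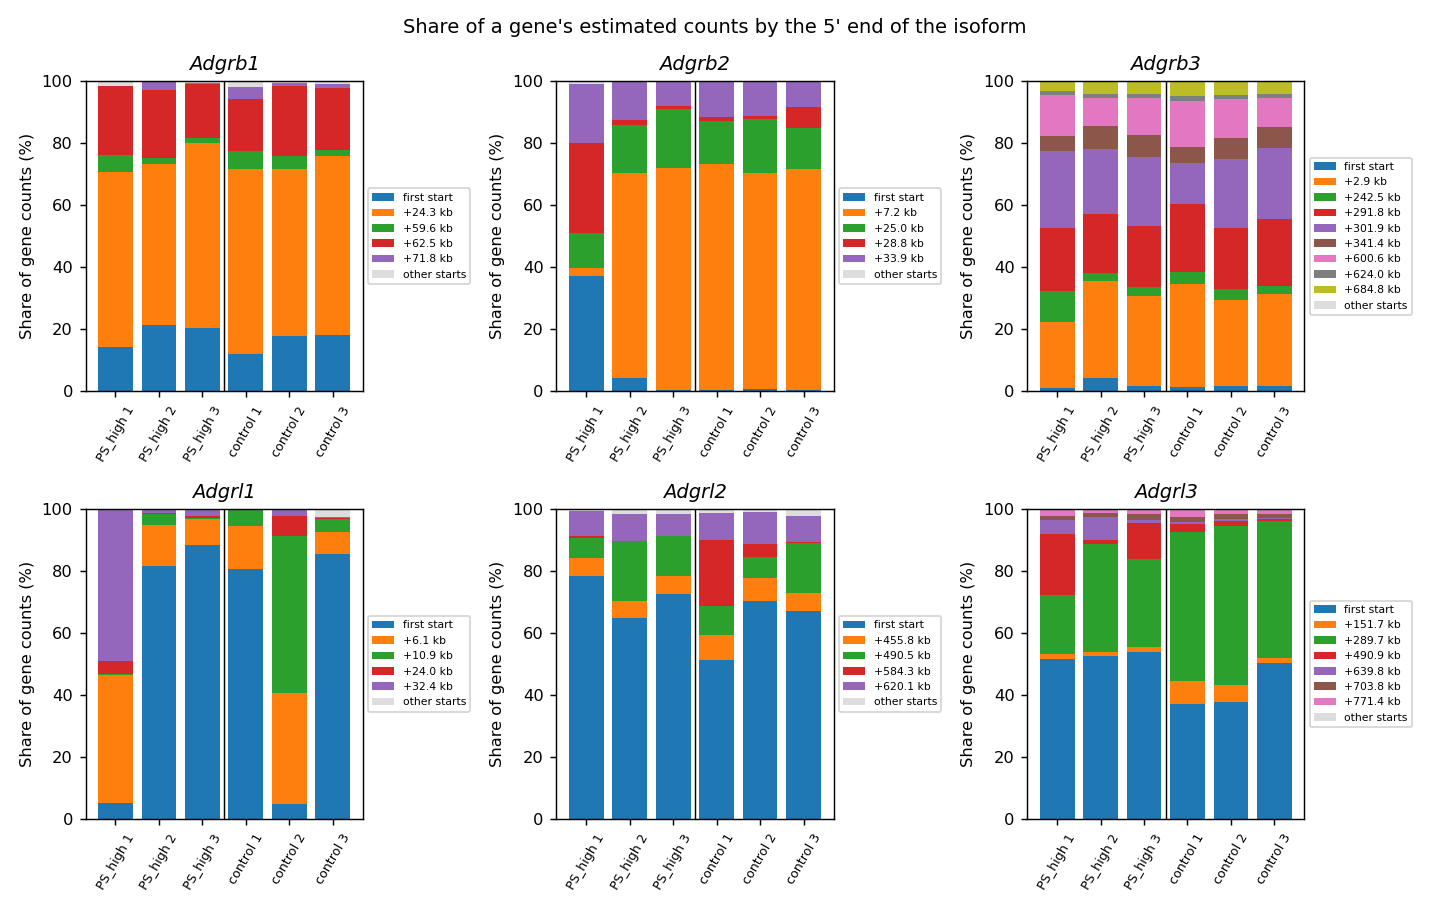
Share of each receptor's estimated counts (vertical axis, percent) by the 5′ end of the isoform, stacked for the 3 PS_high and 3 control libraries, with each start named by its distance from the first start shown. The first start of Adgrl1 holds little in PS_high 1 and control 2 (5.08% and 4.76%), Adgrb2 changes start in PS_high 1, and in Adgrl3 the start at 289.7 kb holds less in all 3 PS_high libraries.

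The RefSeq promoter windows (250 bases upstream of the annotated start, GRCm38.p6) are shown for the genes whose starts differed between libraries or groups, Adgrl1 and Adgrl3, for Adgrb2, whose start differed in 1 library, and for Adgrl2, whose window differs in base composition. Capitals mark a GC box, searched as GGGCGG on both strands. TATAAA was also searched on both strands and is not marked.
Adgrl1, chr8:83899848-83900097, plus strand: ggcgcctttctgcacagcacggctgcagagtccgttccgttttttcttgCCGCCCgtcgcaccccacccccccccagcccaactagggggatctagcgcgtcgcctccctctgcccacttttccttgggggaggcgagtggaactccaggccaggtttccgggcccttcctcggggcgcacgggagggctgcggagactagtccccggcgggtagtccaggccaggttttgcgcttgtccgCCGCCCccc
Adgrl3, chr5:81020502-81020751, plus strand: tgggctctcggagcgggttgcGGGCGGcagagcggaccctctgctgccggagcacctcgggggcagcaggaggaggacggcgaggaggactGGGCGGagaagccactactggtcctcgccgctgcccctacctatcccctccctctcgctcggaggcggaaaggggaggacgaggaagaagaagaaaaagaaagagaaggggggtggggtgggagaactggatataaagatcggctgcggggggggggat
Adgrb2, chr4:129984620-129984869, plus strand: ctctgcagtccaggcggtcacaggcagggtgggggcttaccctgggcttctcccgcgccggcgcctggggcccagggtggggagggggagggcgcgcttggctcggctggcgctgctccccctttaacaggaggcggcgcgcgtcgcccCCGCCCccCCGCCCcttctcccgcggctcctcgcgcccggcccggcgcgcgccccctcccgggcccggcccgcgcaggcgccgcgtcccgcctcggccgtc
Adgrl2, chr3:148954636-148954885, minus strand: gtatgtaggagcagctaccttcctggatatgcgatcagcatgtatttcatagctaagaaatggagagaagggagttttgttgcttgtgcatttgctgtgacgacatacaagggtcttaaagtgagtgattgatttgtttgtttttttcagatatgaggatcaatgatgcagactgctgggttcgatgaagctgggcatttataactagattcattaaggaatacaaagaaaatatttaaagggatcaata
The Adgrl1 window ends 7 bases before the 5′ end of ENSMUST00000141158 and holds 2 GC boxes and 21 CG pairs. The Adgrl3 window shown, 1 of its 3, lies at the 5′ end of MSTRG.30195.3 and holds 2 GC boxes, 18 CG pairs and 1 TATAAA, and isoforms starting within 100 bases of it held 8.20, 10.2 and 18.2% of the counts in PS_high and 5.32, 5.47 and 8.96% in control. The Adgrb2 window lies before the upstream start region of the gene, at the 5′ end of ENSMUST00000120204, and holds 2 GC boxes, 35 CG pairs and 0 TATAAA. Isoforms starting within 100 bases of it held 0, 0.351 and 0% of the counts in PS_high and 0, 0.239 and 0% in control. The whole upstream start region (129984870 to 129985268), in which ENSMUST00000106017 starts at 129985164, held 37.3, 4.35 and 0.418% in PS_high and 0.305, 0.824 and 0.437% in control. The Adgrl2 window holds 0 GC boxes, 3 CG pairs and 1 TATAAA, which lies on the opposite strand and reads TTTATA as printed. Isoforms starting within 100 bases of this window held 5.06, 17.3 and 11.7% in PS_high and 9.16, 6.54 and 15.5% in control. The Adgrl2 start at 149445301, which held most of the gene's counts in every library, lies 490.5 kb upstream of this start region. The window shown is therefore not that of the main start. Of 32851 mouse windows of this length, 32.7% hold a GC box and 12.4% a TATAAA, on either strand, and the median number of CG pairs is 6. A match is a description of letters and not a binding site.

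The third comparison concerned circRNAs. Adgrb3 was the main host, with 37 circRNAs and 339 back-splice reads (rank 38 of 4596 hosts), followed by Adgrl3 with 26 and 129 reads (rank 148) and Adgrl2 with 12 and 28 reads (rank 808). Adgrl1 had 1 circular RNA with 1 read, in control 2, and 0 were listed for Adgrb1 and Adgrb2. Of the 76, 19 had reads in at least 3 libraries and were tested, and 0 passed in edgeR, where 0.0305% of all tested circRNAs did. None of the 19 had an unadjusted p under 0.05, beside 162 of the 3275 circRNAs tested (4.95%), and DESeq2 called 0. Relative to the host gene 0 of 19 passed, beside 0.0636% of all.

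Summed over its circles, Adgrb3 had 61, 50 and 51 back-splice reads in PS_high and 63, 61 and 53 in control. Scaled to the library (SRPBM, the deposited scaled back-splice signal), this was 487.5 ± 54.6 in PS_high and 462.6 ± 33.2 in control (SD, n = 3 each). The groups overlapped, with a log2 difference of 0.07 (SE 0.30, adjusted p 0.985 in edgeR), where 0 of 2365 hosts passed (0%, with 102 at an unadjusted p under 0.05).

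Adgrl3 had 14, 18 and 23 back-splice reads in PS_high and 20, 28 and 26 in control. Per 10000 linear counts of the gene this was 10.3 ± 2.72 in PS_high and 13.9 ± 1.81 in control. The single values were 7.12, 11.7 and 11.9 in PS_high and 12.0, 14.1 and 15.6 in control. On this ratio the groups did not overlap, by a narrow margin between PS_high 3 and control 1, and it was not tested. The log2 difference of the sum was -0.23 (SE 0.38, adjusted p 0.985 in edgeR). Adgrl2 had 4, 3 and 6 reads in PS_high and 7, 6 and 2 in control, which is too few to show a moderate difference.

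The most abundant circle was mmu_circ_0000021 of Adgrb3, 3 exons between 25221760 and 25228547 on chromosome 1, with 14, 10 and 9 reads in PS_high and 21, 16 and 10 in control. It overlapped between the groups (log2 difference -0.30, SE 0.50). circRNA4088, of 4 exons, had 7, 5 and 7 reads in PS_high and 2, 5 and 7 in control, and mmu_circ_0008622, of 5 exons, had 5, 5 and 6 reads in PS_high and 5, 5 and 3 in control. For mmu_circ_0008622 the SRPBM values did not overlap (44.2, 49.3 and 50.6 in PS_high, against 37.6, 40.0 and 24.1 in control), with an adjusted p of 0.976 in edgeR.

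The circles of the latrophilins had fewer reads. In Adgrl3, mmu_circ_0012808, a single-exon circle of 18 reads, had 6, 2 and 2 in PS_high and 6, 2 and 0 in control. circRNA4530 had 3, 3 and 3 reads in PS_high and 5, 0 and 0 in control, and mmu_circ_0012804 had 0, 2 and 5 in both groups. In Adgrl2, circRNA4448 had 0, 2 and 0 reads in PS_high and 3, 3 and 0 in control, mmu_circ_0010530 had 0, 1 and 3 in PS_high and 0, 2 and 0 in control, and circRNA11610 had 3, 0 and 0 in PS_high and 0 in every control library. Most circles of these hosts were seen in 1 library only. With rows that describe the same circle added up, these were 13 of 23 for Adgrl3 and 10 of 12 for Adgrl2 (17 of 26 rows as deposited for Adgrl3).

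**Figure D4:**
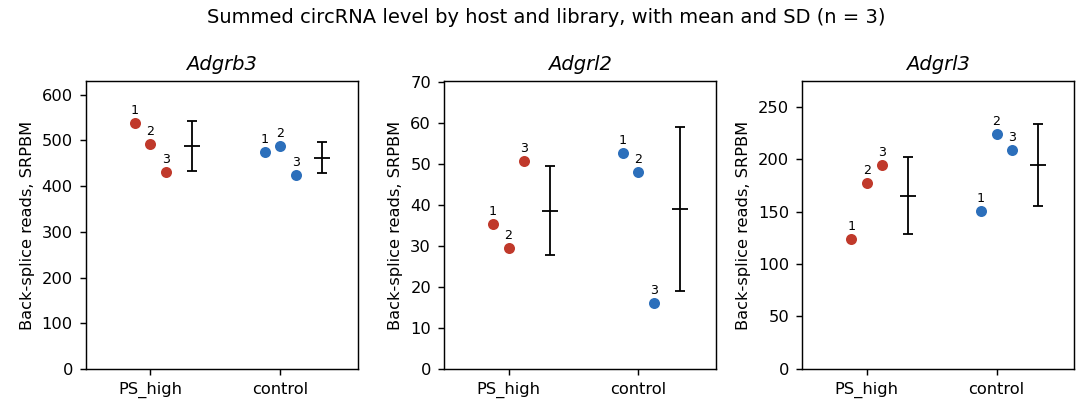
Summed circRNA level of the 3 hosts with tested circles, in SRPBM (vertical axis, from 0), in the 3 PS_high and 3 control libraries, numbered by replicate, with the mean and SD (n = 3). Adgrb3 stays between 425.1 and 539.1 SRPBM in all 6 libraries, and the groups overlap for each host.

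The genes that work with these receptors were read from lists of ligands, of intracellular partners and of the other adhesion receptors. Of 62 tested genes 0 passed in edgeR, beside 0.0247% of all 20272 genes tested, and 1 had an unadjusted p under 0.05, beside 2.73% of all. DESeq2 and limma also called 0 of the 62, beside 47 and 0 of the 20272. The median log2 difference was 0.04 over 18 ligands and binding partners, 0.06 over 30 intracellular partners and 0.01 over 14 other adhesion receptors, beside -0.01 over all tested genes.

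Among the ligands, Tenm3, a teneurin that latrophilins bind, had 230.9, 184.6 and 170.3 CPM in PS_high and 171.5, 134.4 and 156.4 CPM in control, with overlap (log2 difference 0.34, SE 0.17). In FPKM its groups did not overlap, with 20.7, 20.5 and 18.0 FPKM in PS_high and 15.9, 13.3 and 15.1 FPKM in control. The Nogo receptor relatives Rtn4rl1 and Rtn4rl2 had log2 differences of -0.26 (SE 0.23) and 0.70 (SE 0.66), and the netrin receptor Unc5d 0.16 (SE 0.19). The abundant neurexin Nrxn3, a presynaptic adhesion protein, had 73.4 ± 3.89 FPKM in PS_high and 70.6 ± 2.79 FPKM in control (SD, n = 3 each).

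Among the intracellular partners, Shank3, a scaffold of the postsynaptic density, had 37.2, 63.0 and 52.0 CPM in PS_high and 69.0, 86.6 and 83.6 CPM in control. All PS_high libraries were below all control libraries in CPM (log2 difference -0.65, SE 0.21, adjusted p 1.0 in edgeR), while in FPKM the groups overlapped and the mean was 14.0 ± 2.57 in PS_high and 11.4 ± 2.03 in control. Cdc42, a small GTPase of the actin skeleton, and Magi1, a membrane scaffold, were above control without overlap, with log2 differences of 0.26 (SE 0.13) and 0.23 (SE 0.13) that did not pass. Magi3 had 0.40 (SE 0.23), the G protein subunit Gnas -0.05 (SE 0.18) and the scaffold Dlg4 0.00 (SE 0.17).

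Among the other adhesion receptors, the endothelial Adgrl4 had 25.2, 19.0 and 24.0 CPM in PS_high and 32.2, 26.5 and 29.8 CPM in control, below control without overlap (log2 difference -0.38, SE 0.18, adjusted p 1.0 in edgeR). In FPKM the direction was the opposite and the groups overlapped, with 8.66 ± 1.76 FPKM in PS_high and 6.54 ± 0.890 FPKM in control (SD, n = 3 each). Adgrf2 and Adgre5 had log2 differences of -0.68 (SE 0.34) and -0.42 (SE 0.23), both below 6 CPM in every library, and Adgrf4 had -0.30 (SE 0.24). The most abundant of the list, Celsr2 and Celsr3, planar polarity cadherins, had 0.01 (SE 0.22) and 0.04 (SE 0.26).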

How the data were processed

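Total RNA with ribosomal RNA removed was sequenced from 3 PS_high and 3 control samples of prefrontal cortex. HISAT2, StringTie and TopHat are named in the submitters' processing notes. Their versions and the genome build were not given in the sources used here. As a check, 792 of 917 snRNA genes shared their position with GRCm38.p6. The deposited linear table gives FPKM and an estimated count per isoform, per the file headers, and all deposited estimated counts were whole numbers. The deposited circular table gives the back-splice count and a signal, SRPBM, which is that count divided by a library total. How reads shared by isoforms were divided is not given, so isoform counts are less certain than gene sums.

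Gene counts were sums over isoforms of the class codes =, j, c, o and e. Features with a mean of at least 0.5 FPKM, and circRNAs with reads in at least 3 libraries, were tested for PS_high over control in edgeR 4.0.16 under R 4.3.3 (glmQLFTest, two-sided), with TMM factors for linear RNA and the totals behind SRPBM for circRNAs, adjusted by Benjamini-Hochberg over the whole table at 0.05. DESeq2 1.42.0 and limma 3.58.1 were alternatives. Shares were compared by exact permutation. For circRNAs edgeR rests mostly on a trend over all circRNAs. Floors of 3 counts cover counting error only. The scripts were tested on simulated data. All 6 genes are described, with isoforms of at least 10% share, the 3 circRNAs with most reads per host, and per partner list the 4 genes of smallest p and the 2 of highest FPKM (1 gene that this rule names is not reported here); the Adgrl3 isoforms of unadjusted p under 0.05 were added after their values were seen. Members and lists were chosen with earlier results of these data known.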

Additional observations from a re-analysis of the deposited data

How the results depend on the processing

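With 3 samples a group, moderate differences of single isoforms and circRNAs could not be resolved. Counts past the threshold stayed at 0 for genes, circRNAs (also relative to the host), host sums and partner genes under every alternative run. For isoforms, 5 of 74 passed in DESeq2 (978 of 69330 over all isoforms, 1.41%) and 1 in limma on log2(FPKM + 0.1) (22 of 69330, 0.0317%), against 0 in edgeR; the cause was not tested. An alternative chosen after seeing the data left out the isoforms that varied between near 0 and over 100 counts within a group. With it 6 of 23 shares did not overlap, against 3 of 27. The share over all isoforms was not computed under this filter, so 6 of 23 has no background to be read against. The isoforms with an unadjusted p under 0.05 in edgeR numbered 11 of 74, and between 3 and 11 when 1 library was left out. Over all 69330 isoforms they numbered 2480, and between 2221 and 2753 when 1 library was left out. Same-numbered samples correlated by 0.156, 0.0893 and 0.0598, and each correlated best with its own number. The other combinations lay between -0.0996 and 0.0248. The labels do not say whether the replicate number pairs the samples, and these values cannot settle it. With a replicate block 0 genes and 0 isoforms of the receptors passed in edgeR. In that fit 6 of 74 isoforms had an unadjusted p under 0.05 (2984 of 69330 over all isoforms, 4.3%).

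Of 570 alternative log2 differences of named features, 502 kept their sign and 68 changed it, none of those past a threshold; the cause was not tested. With annotated isoforms only, the sign changed for Adgrb3 (-0.05), Adgrl1 (0.13), Adgrl2 (-0.00) and Adgrl3 (-0.16), and Adgrb1 kept its sign at -1.35, against -0.11 with all its isoforms. With limma on log2(FPKM + 0.1) it changed for Adgrb3 (-0.01), Adgrl2 (-0.03), ENSMUST00000141158 (-0.45) and MSTRG.38615.8 (0.02), and with a pseudocount of 1 for Adgrb3 (-0.01) and Adgrl2 (-0.03). With a replicate block it changed for ENSMUST00000141158 (-0.11), MSTRG.38615.8 (0.04), MSTRG.26118.5 (-1.03) and the Adgrl2 host sum (0.05). MSTRG.357.22 gave 0.01 in DESeq2, 0.01 with its size factors in edgeR and 0.00 without a filter, and the Adgrb3 host sum gave -0.07 with TMM factors.

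Leaving out 1 library at a time gave log2 differences on both sides of 0 for the following. Among genes the range was -0.29 to 0.05 for Adgrb1, -0.45 to 0.03 for Adgrb2, -0.03 to 0.18 for Adgrb3, -0.31 to 0.30 for Adgrl1 and -0.01 to 0.09 for Adgrl2; without PS_high 1 the values were 0.05, 0.03, -0.03 and 0.30 for Adgrb1, Adgrb2, Adgrb3 and Adgrl1. Among Adgrb1 isoforms it was -0.32 to 0.10 for MSTRG.13797.19, -0.67 to 0.05 for MSTRG.13797.8, -0.61 to 0.09 for MSTRG.13797.7, -0.05 to 0.65 for MSTRG.13797.1 and -0.37 to 0.97 for MSTRG.13797.5. Among Adgrb2 isoforms it was -1.0 to 0.27 for MSTRG.28148.5, -0.47 to 0.25 for MSTRG.28148.13, -0.28 to 0.07 for MSTRG.28148.17, -1.37 to 2.35 for MSTRG.28148.15, -2.42 to 1.06 for MSTRG.28148.6 and -0.72 to 4.48 for ENSMUST00000106017. It was -0.11 to 0.10 for MSTRG.357.22, -0.42 to 0.73 for ENSMUST00000141158, -0.39 to 0.50 for MSTRG.38615.8, -0.18 to 0.76 for MSTRG.26118.6, -0.77 to 2.73 for MSTRG.26118.5, -0.28 to 0.73 for ENSMUST00000106128 and -0.05 to 0.95 for MSTRG.30195.8. Among circular RNA it was -0.00 to 0.16 for the Adgrb3 host sum, -0.37 to 0.27 for the Adgrl2 host sum, -0.13 to 3.61 for mmu_circ_0010530, -0.16 to 1.77 for mmu_circ_0012808 and -0.89 to 1.29 for mmu_circ_0012804.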

Other observations

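The linear table also listed isoforms inside introns of these genes, which the gene sums leave out. Adgrb3 had 12 on the opposite strand, with 24536, 12490 and 16055 counts in PS_high and 29663, 17059 and 16605 in control. Of the control 1 counts, 6139 stood in MSTRG.373.1, which was at 0 in every other library. Adgrl3 had 9 on the opposite strand, equal to 41.5, 39.8 and 37.7% of the gene's own counts in PS_high and 63.7, 44.6 and 50.1% in control, without overlap and without a test. In Adgrb1 the intronic MSTRG.13798.1 had 1595, 2358 and 1614 counts in PS_high and 1754, 3830 and 2472 in control.

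The circular table held 1188 pairs of rows that describe the same circle with starts 1 base apart, and reads stood in both rows of a pair in 10 of 4615 library entries. Of these pairs 8 lay in the receptor genes. Added up, mmu_circ_0000020 and circRNA9925 of Adgrb3 had 1, 7 and 5 reads in PS_high and 0, 0 and 3 in control (log2 difference 2.19, unadjusted p 0.0888 in edgeR). mmu_circ_0012818 and circRNA7566 of Adgrl3 had 1, 2 and 4 reads in PS_high and 1, 12 and 3 in control, and all 12 reads of control 2 stood in the row of circRNA7566. Adding such rows was chosen after seeing the data and left 0 receptor circRNAs past the threshold.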
